A study of Solanum lycopersicum with 12 samples.

Results

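Callus formed by tomato (Solanum lycopersicum) cotyledons, the seed leaves, was compared at day 12 of culture with the cotyledons at day 0 for the small RNAs that lay on gene loci. The comparison used 6 of the 12 libraries of the series, 3 of callus at day 12 and 3 of cotyledon at day 0, chosen by the time point in the library name. For the callus, cotyledons cut from seedlings 6 days after sowing were kept on SIM medium for 12 days at constant temperature with a daily light and dark period, per the labels and the series' design text. The cotyledons of day 0 were cut at the same age and had spent no time on the medium. The labels name no cultivar, genotype or transgene, and do not spell out the SIM medium. Whether the replicates are separate cultures is not stated either. The p-values therefore measure only the spread between libraries, which may be technical. In the edgeR and limma fits this spread was estimated over all 12 libraries of the series.

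Plant small RNAs are cut from longer RNAs by Dicer-like enzymes, and their length tells much about their kind. Most microRNAs and the secondary small interfering RNAs that arise from cleaved transcripts are 21 or 22 nt long, and the 22-nt kind is known for starting the production of secondary small RNAs. Small interfering RNAs of 24 nt mostly come from transposons and repeats, and guide DNA methylation. Callus is a mass of dividing, less specialised cells, and is known for changed DNA methylation and small RNAs relative to the organ it came from.

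The deposited table counted reads of each length from 18 to 26 nt at 34688 gene loci, and 32258 loci had a read in some library. Gene reads numbered 529570 to 657593 per day 12 callus library and 456744 to 563528 per cotyledon library. Such a count says nothing of the mRNA level of the gene. Locus identifiers came without names or descriptions, and 0 of them matched the reference gene table. Loci are therefore given by identifier, no function is attached to them, and neither the tissue labels nor any gene list could be checked by marker genes. The first principal component of the libraries separated callus from cotyledon, and on the second, callus replicate 3 and cotyledon replicate 1 stood apart from their own groups, so counts are also given without these 2 libraries. In tissue samples such as these, fewer cells of a type and less RNA per cell cannot be told apart.

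The first question was where small RNA reads were gained and where they were lost. Of 6729 loci with enough reads to be tested, 967 rose in callus at day 12 (14.4%) and 1289 fell (19.2%), in edgeR's quasi-likelihood test at a Benjamini-Hochberg adjusted p of 0.05. The changes were large on both sides. The median log2 change was 1.90 among loci that rose and -1.85 among those that fell, and 46.3% and 45.8% of them changed more than 4-fold. Of the loci that rose, 86 rose more than 16-fold, and of those that fell, 106 fell more than 16-fold. The 3 callus libraries lay above all 3 cotyledon libraries at 910 of the loci that rose, and below them at 1258 of those that fell; over all tested loci the groups did not overlap at 46.6%. Without the 2 libraries that stood apart, 642 loci rose and 876 fell. A locus low in one group could pass the filter on low counts through the other group's reads, so that counts over tested loci are not counts over all loci.

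Rises and falls differed in how abundant the loci were. Levels are given as CPM, the usual read count scaled to library size, here to the gene reads of each library adjusted by TMM. Among 3150 loci with a mean of 10 to 30 CPM over the 6 libraries, 451 rose and 248 fell. Among 787 loci of 100 to 300 CPM, 97 rose and 328 fell, and among 106 loci above 1000 CPM, 17 rose and 47 fell. Falls thus outnumbered rises among the well-covered loci. Among the sparse ones rises outnumbered falls, with 59 rises and 2 falls among 189 loci below 10 CPM. The filter on low counts used all 12 libraries, most of them callus. A sparse locus high only in callus therefore passed it more easily than one high only in cotyledon. The excess of rises among sparse loci cannot be told apart from this effect of the filter. In either direction, 22.2% of loci of 10 to 30 CPM and 60.4% of those above 1000 CPM passed the test, against 33.5% of all tested loci. Callus libraries also held reads at more loci. Thinned to an equal 456744 reads, the callus libraries had reads at 21726, 21238 and 20307 loci and the cotyledon libraries at 18376, 18162 and 18409. No callus library overlapped a cotyledon library in this number (exact permutation test, two-sided, p = 0.1, the smallest that 3 against 3 libraries can give, adjusted p = 0.222 over 20 library measures).

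The locus with the largest gain in reads was Solyc11g008540.3. It had 51126, 63743 and 45553 reads in the callus libraries, against 2066, 5234 and 4081 in the cotyledon libraries. Every callus library was far above every cotyledon library, and the locus held 7.76% to 9.69% of gene reads in callus and 0.376% to 0.929% in cotyledon. Its level rose 11.1-fold (log2 change 3.47, SE 0.37, edgeR adjusted p = 1.93e-06). By length, its 21-nt reads rose 17.9-fold (log2 change 4.16, SE 0.46, edgeR adjusted p = 5.98e-07), whereas its 22-nt reads rose 2.68-fold (log2 change 1.42, SE 0.31, edgeR adjusted p = 0.00149). In callus 77327 ± 4797 CPM of this locus were at 21 nt and 9369 ± 1548 CPM at 22 nt (SD, n = 3). In cotyledon 4330 ± 2154 CPM were at 21 nt and 3490 ± 1417 CPM at 22 nt (SD, n = 3). The locus thus had nearly as many 22-nt as 21-nt reads in cotyledon, and mostly 21-nt reads in callus.

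Solyc11g008540.3 is the last of 3 loci with consecutive identifiers on chromosome 11 that all rose, beginning with Solyc11g008520.3. Of these, Solyc11g008530.3 had the second largest gain, with 22789, 31262 and 22444 reads in callus and 4917, 11919 and 8726 in cotyledon, a 2.36-fold rise (log2 change 1.24, SE 0.34, edgeR adjusted p = 0.00900). By length, the difference of the group means, callus less cotyledon, was 26278 CPM at 21 nt and -2222 CPM at 22 nt. The next gains were at Solyc11g009010.2, Solyc06g048960.5 and Solyc01g058100.2, which like Solyc11g008520.3 and Solyc11g008530.3 were chosen after their values were seen. Solyc01g058100.2 had 5418, 8199 and 6913 reads in callus and 588, 903 and 285 in cotyledon, a 9.52-fold rise (log2 change 3.25, SE 0.34, edgeR adjusted p = 1.50e-06). At none of these 5 loci did a callus library reach down to a cotyledon library, and reads of 21 nt made up between 77.5% and 94.4% of the reads of each in callus and between 45.3% and 95.2% in cotyledon. At Solyc11g008530.3 in cotyledon, 45.3% were 21 nt and 47.3% 22 nt long. Smaller folds were found at Solyc11g009010.2 (2.28-fold) and at Solyc06g048960.5 (2.03-fold), and Solyc06g048960.5 lost its call without replicate 1 of cotyledon, where its log2 change was 0.84 in place of 1.02 (edgeR adjusted p = 0.0563). Without that library and replicate 3 of callus day 12, neither Solyc11g008530.3 (log2 change 0.93, edgeR adjusted p = 0.0581) nor Solyc06g048960.5 (log2 change 0.81, edgeR adjusted p = 0.0886) passed.

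The largest loss was at Solyc00g500063.1, one of the loci that the identifiers place on no numbered chromosome. It had 3383, 5696 and 3246 reads in the callus libraries and 17778, 18078 and 16276 in the cotyledon libraries. The callus libraries were all below the cotyledon libraries, and the level fell 5.34-fold (log2 change -2.42, SE 0.24, edgeR adjusted p = 1.05e-06). Its reads had no main length: each length from 18 to 26 nt held between 3.01% and 22% of them in callus and between 6.49% and 15.3% in cotyledon, and the loss was spread over the lengths as well, with a difference of -2316 CPM at 18 nt and -4513 CPM at 24 nt. Whether such spread reads are pieces of a longer transcript was not tested.

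The next 4 losses, chosen after their values were seen, did have a main length. Solyc12g099270.2, with 70.7% of its reads at 22 nt in callus and 80.3% in cotyledon, had 16745, 25962 and 25745 CPM in callus and 43374, 38114 and 42393 CPM in cotyledon. Its fall of 0.86 on the log2 scale (SE 0.26, edgeR adjusted p = 0.0182) lost its call in 4 of the alternatives that leave out libraries, with log2 changes close to it or smaller. These were -0.61 without replicate 1 of callus day 12 (edgeR adjusted p = 0.128), -0.78 without replicate 1 of cotyledon (edgeR adjusted p = 0.0610), -0.80 without replicate 3 of cotyledon (edgeR adjusted p = 0.0627) and -0.89 without both libraries that stood apart (edgeR adjusted p = 0.0544). It was the most abundant locus in replicates 1 and 3 of cotyledon, and at 22 nt its group means differed by -16934 CPM. Solyc01g009565.1, with 73.6% of its reads at 21 nt in callus and 62.3% in cotyledon, had 2195, 1945 and 1905 reads in callus and 8396, 11215 and 6098 in cotyledon, a 5.21-fold fall (log2 change -2.38, SE 0.28, edgeR adjusted p = 4.88e-06). Solyc02g036270.4 and Solyc11g064980.1, both mostly 21 nt, fell 2.38-fold and 2.27-fold. The plot of the loci with the largest gains and losses shows both groups for each.

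**Figure D1:**
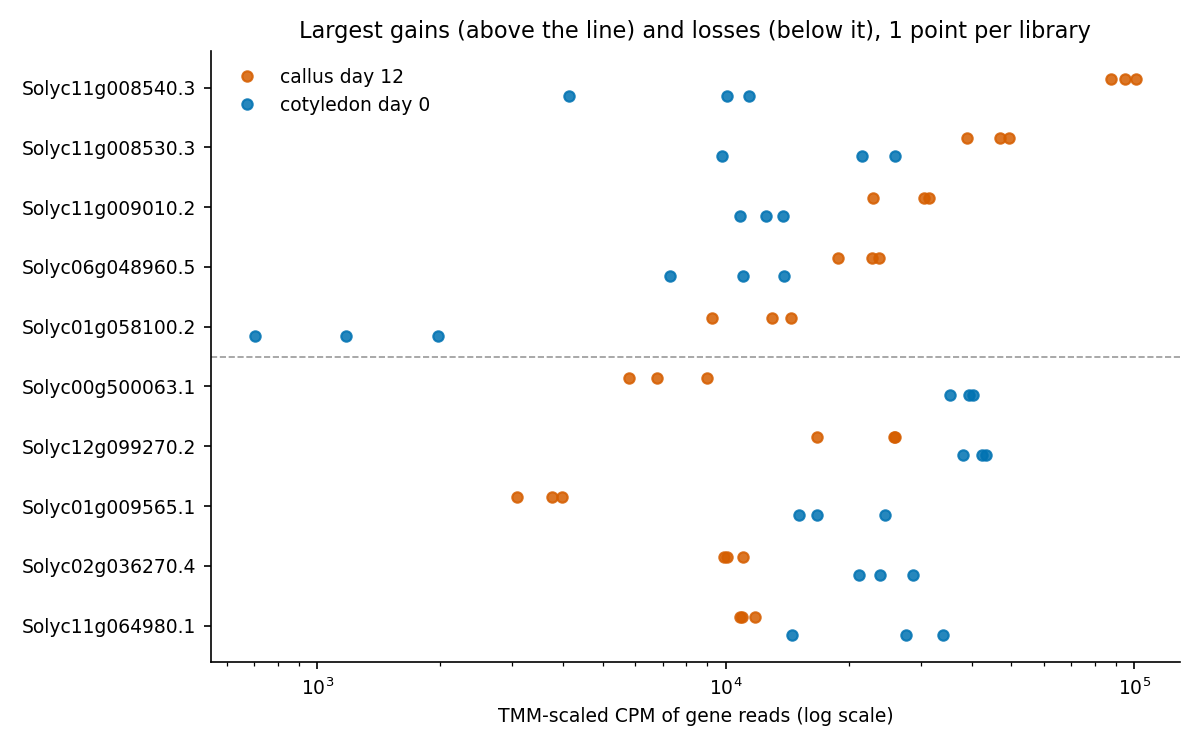
Level of the 5 loci with the largest gains (above the dashed line) and the 5 with the largest losses (below it) in callus day 12 and cotyledon day 0, in TMM-scaled CPM of gene reads on a log axis, 1 point per library. At each locus the 3 callus points and the 3 cotyledon points do not overlap, and at Solyc11g008540.3 the callus points sit between 87500 and 100815 CPM, against 4122 to 11420 CPM in cotyledon.

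By size of the log2 change, the loci that stood out were those with no or almost no reads in one group. Solyc07g042230.1 had 0, 0 and 0 reads of 21 nt in callus and 453, 1076 and 766 in cotyledon, at least 951-fold lower when callus is set to 3 counts summed over its libraries (edgeR adjusted p = 3.23e-09). The same locus had 0, 1 and 1 reads of any length in callus and 484, 1149 and 807 in cotyledon, and the 6 day 14 and 16 libraries held 0 to 2. Solyc06g160050.1, the other named fall of the summed reads, had 0 reads in each callus library and 59, 75 and 51 in cotyledon, spread over all lengths. Both were thus near or at 0 in all callus libraries.

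On the other side, Solyc03g115920.3 had 83, 330 and 113 reads in callus and 0 in each cotyledon library. Its reads of 21 nt were at least 82.8-fold higher (edgeR adjusted p = 0.000164) and those of 22 nt at least 25.5-fold higher (edgeR adjusted p = 0.00251). Solyc07g009500.3 had 111, 106 and 59 reads in callus and 0 in each cotyledon library, with 7.61% to 16.3% of the callus reads at each length. One of these loci thus had a main length, and the other had none. Neither had a read in any cotyledon library.

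The fits of single lengths named further loci by the same rule. At 21 nt, Solyc07g008600.1 had 31, 38 and 21 reads in callus and 0 in each cotyledon library, at least 24.1-fold higher (edgeR adjusted p = 1.18e-06). At 21 nt, Solyc11g030760.1 had 0 reads in each callus library and 33, 50 and 39 in cotyledon, at least 50.6-fold lower (edgeR adjusted p = 4.69e-06). Both kept to their side in every library, which the rule for naming loci required. At 22 nt, Solyc07g052000.1 had 68, 17 and 10 reads in callus and 0 in cotyledon, so that most of its callus reads came from replicate 1. At 22 nt, Solyc12g009650.2 had 0 reads in callus and 32, 33 and 28 in cotyledon, at least 38.5-fold lower (edgeR adjusted p = 3.50e-05). Solyc02g086820.3 likewise had no 22-nt read in callus, with 18, 24 and 32 in cotyledon. Neither fall was particular to 22 nt. Each length held 8.14% to 14.7% of the cotyledon reads of Solyc12g009650.2 and 5.92% to 15.7% of those of Solyc02g086820.3. The rise of Solyc07g008600.1 was not particular to 21 nt either, with 52.3 CPM gained at 21 nt, 63.1 CPM at 22 nt and 45.0 CPM at 24 nt.

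At 24 nt, Solyc12g099780.2 had 0 reads in callus and 47, 26 and 26 in cotyledon, at least 41.0-fold lower (edgeR adjusted p = 0.000136). Solyc02g083810.4 had 0 in callus and 18, 19 and 23 in cotyledon, at least 24.9-fold lower (edgeR adjusted p = 0.000473). Both were at 0 in every callus library. In the other direction, Solyc10g054440.3 had 19, 15 and 12 reads of 24 nt in callus and 0 in cotyledon, at least 12.3-fold higher (edgeR adjusted p = 0.000630). Solyc04g162680.1 had 17, 29 and 4 reads of 24 nt in callus and 0 in cotyledon (edgeR adjusted p = 0.0331), and this call was lost without any 1 library other than replicate 3 of callus (edgeR adjusted p 0.0574 to 0.0928). Neither rise was largest at 24 nt. The gain of Solyc10g054440.3 was 154 CPM at 21 nt and 27.1 CPM at 24 nt. That of Solyc04g162680.1 was 57.2 CPM at 22 nt and 27.8 CPM at 24 nt.

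The second question was which lengths carried the changes, and the lengths differed in direction when all were kept on 1 scale. Among 21-nt reads, 224 of 1022 tested loci rose (21.9%) and 191 fell (18.7%), or 40.6% in either direction. Among 22-nt reads, 184 of 790 rose (23.3%) and 142 fell, or 41.3% in either direction. On this scale rises thus outnumbered falls at 21 and 22 nt, which at 22 nt turned round when reads were scaled within the length, while falls were in the majority at the other 7 lengths. Without the 2 libraries that stood apart, the majority of rises was gone: 181 loci rose and 190 fell at 21 nt, and 134 rose and 135 fell at 22 nt.

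At 24 nt, 171 of 2432 loci rose (7.03%) and 654 fell (26.9%), 33.9% together, and at 23 nt 83 of 1146 rose (7.24%) and 308 fell (26.9%), 34.1% together. Fewer loci could be tested at lengths below 21 nt and above 24 nt. At 18 nt 26 of 173 rose (15.0%) and 73 fell (42.2%), together 57.2%. At 19 nt 29 of 217 rose (13.4%) and 83 fell (38.2%), together 51.6%, and at 20 nt 52 of 364 rose (14.3%) and 138 fell (37.9%), together 52.2%. At 25 nt 42 of 255 rose (16.5%) and 84 fell (32.9%), together 49.4%, and at 26 nt 19 of 101 rose (18.8%) and 52 fell (51.5%), together 70.3%. The fall at 24 nt rested in part on 1 library: 409 loci fell without replicate 1 of cotyledon, the library with the largest 24-nt share. Without it and callus replicate 3, 91 rose and 344 fell.

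The split at single lengths depended on the scale. The median log2 change of loci tested at 24 nt was -0.49 on the common scale, and 0.04 when reads of each length were scaled by TMM among themselves. At 24 nt 353 loci then rose and 411 fell, so that 46.2% of calls rose, against 20.7% on the common scale. The same held for 23 nt, with 150 rises and 186 falls, and at 18, 19, 20 and 26 nt, where 54 rose and 71 fell, 61 rose and 74 fell, 94 rose and 113 fell, and 37 rose and 42 fell. At 21 nt there were 245 rises and 199 falls, and at 22 nt 146 rises and 166 falls. The common scale shows the change relative to the bulk of tested loci with all lengths summed, as TMM sets it, and is not a share of all gene reads. The scale within a length shows the change relative to the bulk of loci at that length. With the recovered library totals as the scale, 206 loci rose and 201 fell at 21 nt, 151 rose and 146 fell at 22 nt, and 160 rose and 728 fell at 24 nt.

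**Figure D2:**
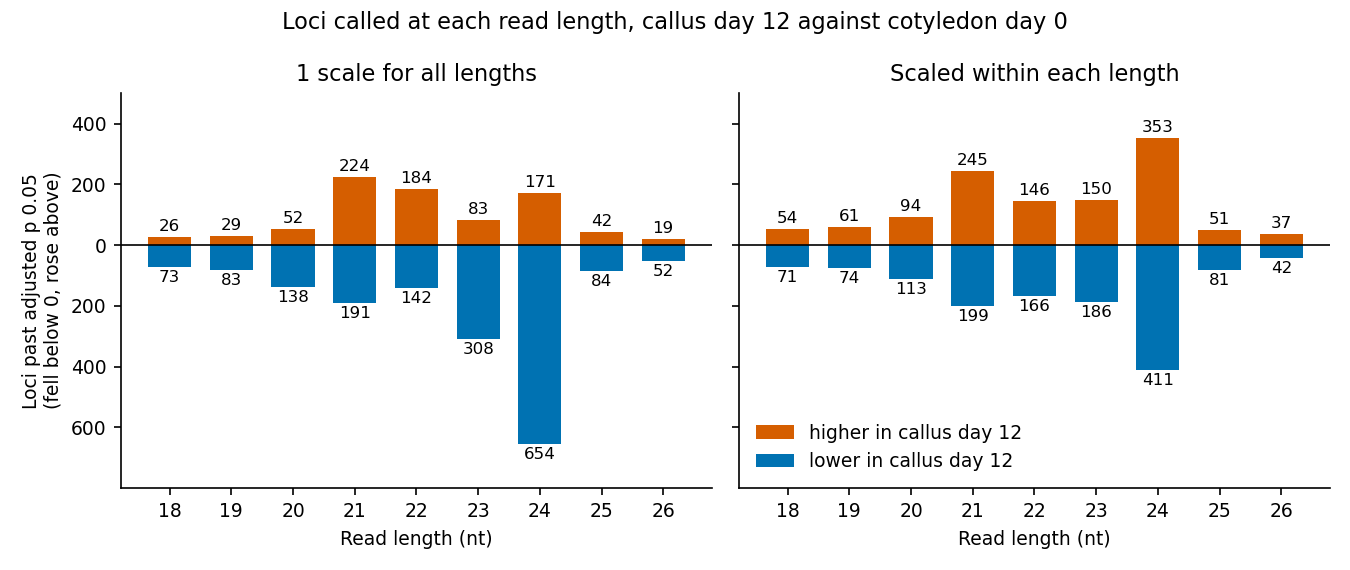
Number of loci past an adjusted p of 0.05 in edgeR at each read length, callus day 12 against cotyledon day 0, with rises drawn above 0 and falls below it. On 1 scale for all lengths (left) falls reach 654 loci at 24 nt against 171 rises, and with TMM within each length (right) the same length has 411 falls and 353 rises.

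Measured in reads rather than loci, the gain was concentrated in few loci and in 21 nt, and the loss was spread out. The 967 loci that rose held 333095 ± 23091 CPM in callus and 97602 ± 20720 CPM in cotyledon (SD, n = 3). Of this gain 69.4% was at 21 nt, 10.2% at 22 nt and 7.72% at 24 nt. Only 3 loci made up 50% of the gain, and Solyc11g008540.3 alone made up 36.5%.

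The 1289 loci that fell held 197781 ± 23389 CPM in callus and 569151 ± 29428 CPM in cotyledon (SD, n = 3). Of this loss 31.0% was at 21 nt, 23.8% at 24 nt and 15.1% at 22 nt. It took 26 loci to make up 50% of the loss, and the largest single loss was 8.40% of it. Without the 5 loci with the largest gains, 33.1% of the remaining gain was at 21 nt, 22.8% at 22 nt and 19.04% at 24 nt, against 69.4%, 10.2% and 7.72% with them. As loci were called by the same reads, these sums describe the called loci and test nothing further.

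**Figure D3:**
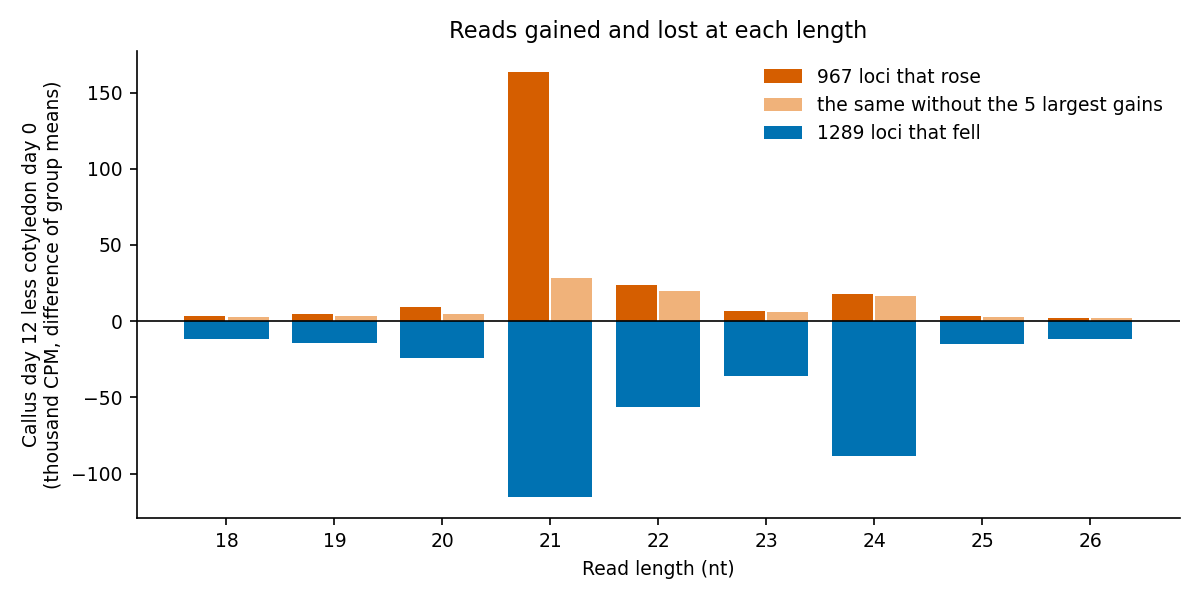
Difference between callus day 12 and cotyledon day 0 in the summed CPM of called loci at each read length, in units of 1000 CPM, as a difference of group means over 3 libraries each. Loci that rose gained most at 21 nt, much less of it without the 5 largest gains (pale bars), and loci that fell lost reads at all lengths, most at 21 and 24 nt.

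Taken 1 locus at a time, rises and falls also differed in the length that changed most. That length was 21 nt at 368 of the 967 loci that rose, 22 nt at 208 and 24 nt at 204. It was 24 nt at 717 of the 1289 loci that fell (55.6%), 21 nt at 192 and 22 nt at 95. These counts are to be read beside the makeup of the 6729 tested loci. Their most frequent length in the libraries of days 14 and 16 was 24 nt at 3295, 21 nt at 1945 and 22 nt at 662. Much of the 24-nt count among fallen loci is thus shared with tested loci in general. The changes of risen loci were broad: the length with the largest change carried a median of 35.3% of the gain, and 50% or more of it at 276 loci. Those of fallen loci were narrower, with a median of 54.0% and 694 loci at 50% or more.

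Most called loci passed the test at 1 length or at none. Far fewer loci were tested at a single length, with 1022 at 21 nt, 790 at 22 nt and 2432 at 24 nt against 6729 in the sum. A locus not tested at a length could not be called there. The counts below therefore do not show over how many lengths a change was spread, and more loci could be called at 24 nt than at 21 nt. Of the loci that rose in the sum, 624 were called at no single length, 196 at 1 and 147 at 2 or more in the same direction. Where the 1 length was the only one, it was 21 nt at 90 loci, 24 nt at 60 and 22 nt at 29. Of the loci that fell, 546 were called at no single length, 416 at 1 and 327 at 2 or more, and the single length was 24 nt at 331 loci and 21 nt at 33. At 30 loci a fall was called at all 9 lengths, and at 5 loci a rise was. Opposite calls at different lengths of the same locus were found at 21 loci, most often a rise at 21 nt with a fall at 24 nt (9 loci) or a rise at 22 nt with a fall at 24 nt (6 loci).

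Reads of 21 nt made up more and reads of 24 nt less of all gene reads in callus. Reads of 21 nt made up 40.6%, 42.9% and 50.6% of gene reads in the callus libraries and 28.1%, 38.0% and 32.5% in the cotyledon libraries. Reads of 24 nt made up 18.97%, 19.03% and 17.5% in callus and 31.5%, 19.1% and 24.1% in cotyledon. Neither share overlapped between the groups, but callus and replicate 2 of cotyledon nearly met at 24 nt (exact permutation p = 0.1 for both, two-sided, adjusted p = 0.222 over 20 library measures). The 22-nt share was 15.2% ± 0.801 in callus and 16.0% ± 1.02 in cotyledon (SD, n = 3, exact permutation p = 0.4), with groups that overlapped.

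Without the 10 loci of the largest mean share over the 6 libraries, the 21- and 24-nt shares overlapped between the groups. The 21-nt share was then 30.3% ± 0.994 in callus and 27.4% ± 4.32 in cotyledon (SD, n = 3, exact permutation p = 0.4), and the 24-nt share 25.7% ± 1.42 and 29.9% ± 6.75 (exact permutation p = 0.5). The 22-nt share was instead 15.7%, 16.0% and 15.9% in callus and 12.0%, 14.2% and 14.2% in cotyledon, without overlap (exact permutation p = 0.1). The difference in the 22-nt share, callus less cotyledon, was thus 2.40 percentage points without these loci and -0.81 with them. The 10 most abundant loci of each library held 26.5%, 29.9% and 38.7% of gene reads in callus and 21.2%, 23.5% and 21.01% in cotyledon.

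Part of the 21-nt share of callus replicate 3 came from 1 pair of loci. Solyc12g040470.2 and Solyc03g119020.2, chosen after their values were seen, had counts so close that their reads cannot be told apart, 94.1% of them at 21 nt over all 12 libraries. The first had 2189, 12479 and 47759 reads in callus and 2520, 7635 and 5406 in cotyledon. It held 8.13% of gene reads in replicate 3 of callus, against 0.413% and 1.90% in the other two callus libraries and 0.459% to 1.35% in cotyledon. With callus libraries on both sides of the cotyledon range, its log2 change of 1.81 (SE 0.80) did not pass the test (edgeR adjusted p = 0.0874).

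**Figure D4:**
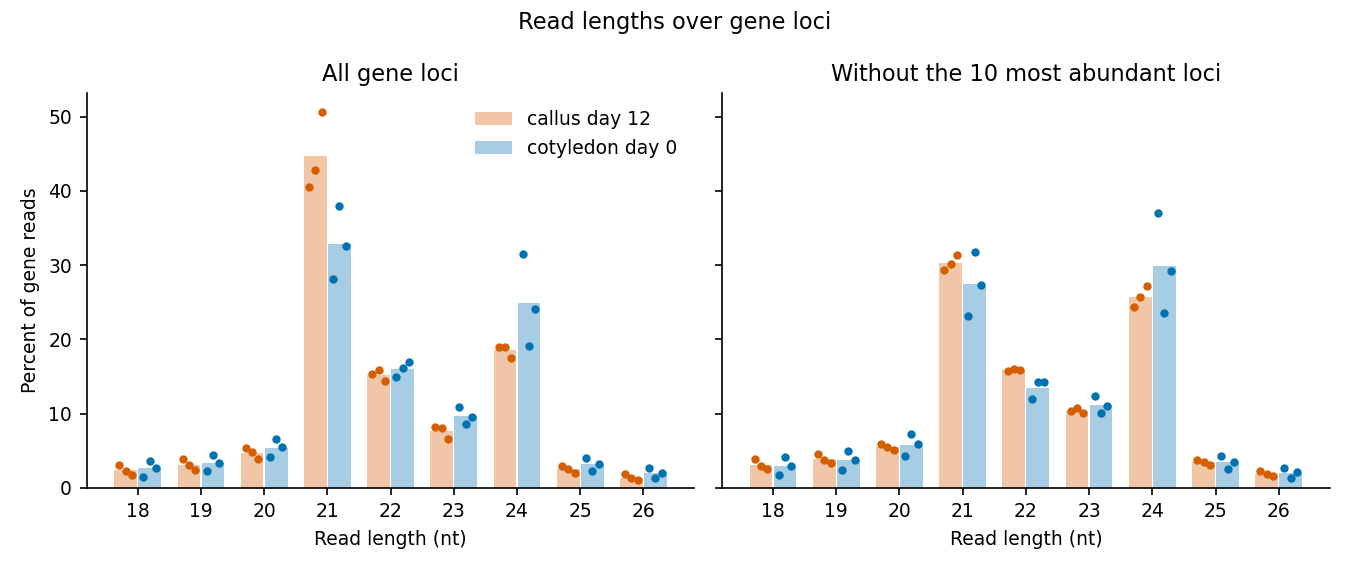
Percent of gene reads at each length from 18 to 26 nt, in callus day 12 (left bar of each pair) and cotyledon day 0, with bars for the mean of 3 libraries and a point per library. With all gene loci the 21-nt share is 44.7% in callus and 32.9% in cotyledon, and without the 10 most abundant loci it is 30.3% and 27.4%, with overlapping points.

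The deposited TPM values split gene reads by strand as well as length, relative to the library totals. Of the 18 length and strand classes, 8 passed limma's test on log2(TPM + 1) at an adjusted p of 0.05 (44.4%), and all 8 fell in callus. Reads of 23 nt fell on both strands, by 0.57 on the log2 scale for sense reads (SE 0.10) and by 0.56 for antisense reads (SE 0.09, limma adjusted p = 0.000932 for both). So did reads of 24 nt, by 0.62 for sense reads (SE 0.11, limma adjusted p = 0.000932) and by 0.61 for antisense reads (SE 0.11, limma adjusted p = 0.0011). At 22 nt sense reads passed the test and antisense reads did not. The limma fit did not test the difference between the strands, for which the antisense share is given below. Sense 22-nt reads were at 14334, 14563 and 14732 TPM in callus and 16801, 22060 and 20659 TPM in cotyledon, and fell by 0.44 on the log2 scale (SE 0.12, limma adjusted p = 0.0112). With only the 6 libraries compared in the fit, this call was lost at the same log2 change (limma adjusted p = 0.0832). Antisense 22-nt reads were at 6896, 7387 and 6601 TPM in callus and 5192, 7663 and 7306 TPM in cotyledon, with a log2 change of 0.07 (SE 0.14, limma adjusted p = 0.670).

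Antisense reads made up 32.5%, 33.7% and 30.9% of 22-nt gene reads in callus and 23.6%, 25.8% and 26.1% in cotyledon, without overlap (exact permutation p = 0.1, adjusted p = 0.222). At 24 nt the antisense shares of the groups overlapped, at 45.03% ± 0.875 in callus and 44.9% ± 0.886 in cotyledon (SD, n = 3, exact permutation p = 1). At 21 nt it was 29.9% ± 4.15 in callus and 30.6% ± 1.49 in cotyledon (SD, n = 3, exact permutation p = 0.9). A strand table by locus was not used here, so it is not known which loci carry the antisense 22-nt reads. Gene reads made up 14.2% ± 0.607 of library reads in callus and 16.5% ± 1.83 in cotyledon, with overlap. With only the 6 libraries in the fit 4 classes passed, and without replicate 3 of callus 5 did.

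The third question was the lean of day 12 towards loci of 21 and 22 nt. Each tested locus was put in a class by the most frequent length among its reads in the 6 libraries of days 14 and 16, which neither group holds. Of 1945 loci of the 21-nt class, 443 rose and 241 fell, so that 64.8% of calls were rises, and of 662 loci of the 22-nt class 173 rose and 73 fell, or 70.3%. Of 3295 loci of the 24-nt class 238 rose and 753 fell, or 24%, and over all tested loci the share was 42.9%. The median log2 change was 0.48 in the 21-nt class, 0.54 in the 22-nt class and -0.23 in the 24-nt class, against 0.08 over all tested loci. In the smaller classes it was -0.22 at 18 nt, 0.28 at 19 nt, 0.20 at 20 nt and -0.08 at 23 nt. At 25 and 26 nt it was 0.30 and 0.62. Rises made up 20.7%, 50%, 50%, 31.4%, 40.5% and 40% of calls in these classes, in the same order. A median above that of all tested loci was thus not particular to the 21-nt and 22-nt classes. The libraries that set the classes were callus too, as at day 12.

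Classed by their cotyledon reads, the 21-nt, 22-nt and 24-nt classes each had a smaller share of rises. Among 1264 loci of 21 nt, 178 rose and 220 fell (44.7% of calls), among 581 of 22 nt 118 rose and 98 fell (54.6%), and among 3002 of 24 nt 157 rose and 733 fell (17.6%). This way of classing left out 526 loci with under 10 reads in cotyledon, 325 of which rose. Among 21-nt loci so classed, falls were in the majority. With the library totals as the scale, 377 of the 21-nt loci by days 14 and 16 rose and 255 fell (59.7%), and of the 24-nt loci 202 rose and 803 fell (20.1%).

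Library by library, the 21-nt class was higher and the 24-nt class lower in callus on the TMM scale. The median level of 21-nt loci, in log2 of CPM plus 1, was 5.07, 4.96 and 4.92 in the callus libraries and 4.39, 4.76 and 4.68 in the cotyledon libraries. That of 24-nt loci was 4.83, 4.96 and 5.10 in callus and 5.49, 5.25 and 5.34 in cotyledon. In both classes the groups did not overlap. Relative to the library totals, the 21-nt medians did overlap, at 2.58, 2.32 and 2.18 in callus and 1.88, 2.30 and 2.21 in cotyledon, while the 24-nt medians stayed apart at 2.38, 2.32 and 2.34 in callus and 2.79, 2.71 and 2.76 in cotyledon.

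The lean itself is the median of 21-nt loci less that of 24-nt loci within a library. A library's scale cancels in this difference, apart from the 1 added to CPM, so the library totals are no separate check of it. The lean was 0.24, 0.00 and -0.19 in callus and -1.10, -0.49 and -0.66 in cotyledon, a difference of 0.77 between the group means, and of 0.64 with library totals. For 22-nt loci it was 0.16, -0.08 and -0.29 in callus and -1.10, -0.61 and -0.80 in cotyledon, likewise 0.77 apart. Without the 2 libraries that stood apart, these differences were 0.69 and 0.75. Every callus library was above every cotyledon library for both, with p = 0.1 for each in a two-sided exact permutation test, the smallest possible with 3 against 3. The libraries of days 14 and 16, from which the classes were taken, had values of -0.61 to -0.29 for 21-nt loci and -0.65 to -0.36 for 22-nt loci. All of these lay below the day 12 libraries, and they overlapped the cotyledon libraries.

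Loci with a clear main length leaned further. Among loci with at least 50% of their reads at 1 length, 109 of 353 loci of 21 nt rose and 52 fell, and 30 of 64 loci of 22 nt rose and 6 fell. Of 2014 such loci of 24 nt, 107 rose and 487 fell. The 22-nt lean was then 0.91, 0.81 and 0.91 in callus and -0.97, -0.51 and -0.49 in cotyledon, 1.53 apart. The lowest callus library was thus above the highest cotyledon library in this difference of class medians. It does not show that each of the 64 loci was higher in callus, and the lower level of the 24-nt class in callus enters it too.

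**Figure D5:**
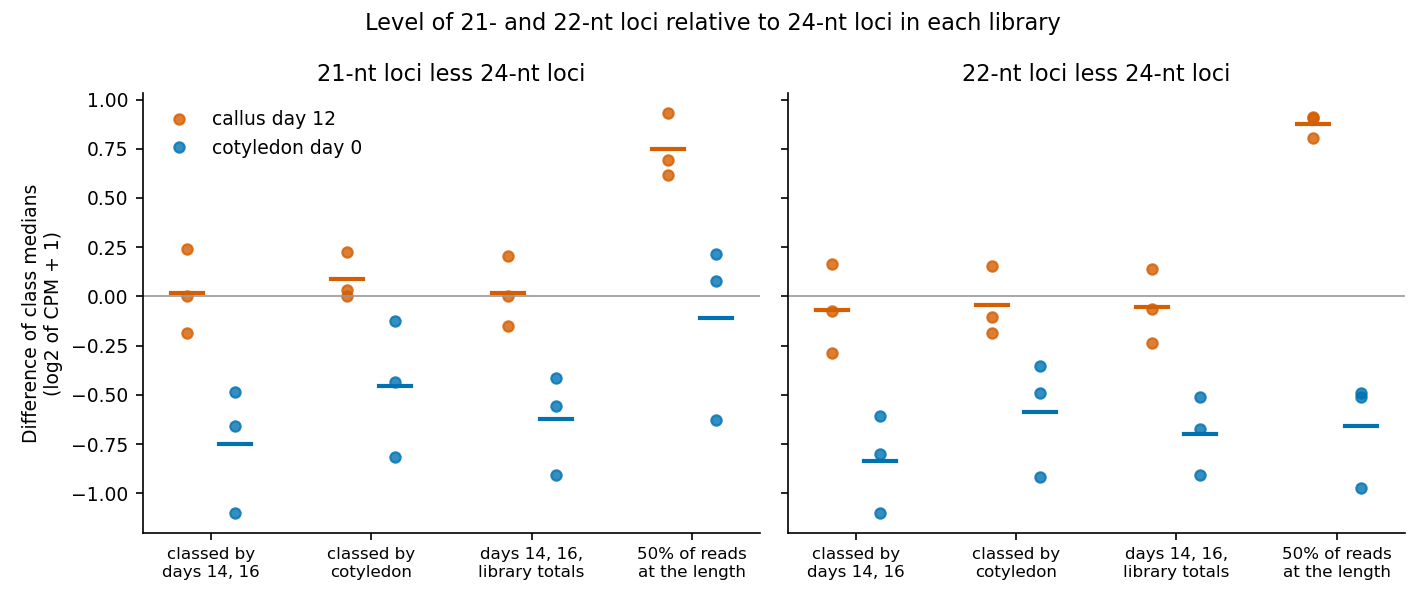
Median level of 21-nt loci (left) or 22-nt loci (right) less that of 24-nt loci in each library, in log2 of CPM plus 1, for 4 ways of classing or scaling loci; points are libraries and lines are means of 3. In each of the 4 ways the callus day 12 points lie above all cotyledon day 0 points, by means of 0.02 against -0.75 for 21-nt loci classed by days 14 and 16. A library's scale cancels in this difference apart from the 1 added to CPM, so the library totals are no separate check.

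Counting loci and counting reads gave different answers for the 22-nt class. Though 173 of its loci rose and 73 fell, its summed level was 95289 ± 8238 CPM in callus and 112461 ± 3694 CPM in cotyledon (SD, n = 3), and every callus library was below every cotyledon library. That difference turned on 1 locus, Solyc12g099270.2: without it, an alternative added after the data were seen, the sums were 72472 ± 4965 CPM in callus and 71167 ± 6037 CPM in cotyledon, with groups that overlapped. The summed level of the 21-nt class was 576304 ± 128882 CPM in callus and 512326 ± 93555 CPM in cotyledon, and without the 5 loci with the largest gains 374542 ± 116674 CPM and 460254 ± 76987 CPM, with groups that overlapped both times. In the 24-nt class the sum was lower in every callus library, at 219308, 268532 and 276120 CPM, against 419343, 346681 and 360479 CPM in cotyledon. Of its reads, those of 24 nt were at 134302 ± 18968 CPM in callus and 209055 ± 43757 CPM in cotyledon, and those of 22 nt at 24177 ± 2652 CPM and 27282 ± 2408 CPM (SD, n = 3).

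Reads of different lengths were also compared within loci, where the scaling of a library cancels. Of 774 loci with enough reads of both lengths, 50 shifted towards 21 nt and 22 towards 24 nt in callus (9.30% in either direction, edgeR with a library term). Of 754 loci with 22-nt and 24-nt reads, 45 shifted towards 22 nt and 25 towards 24 nt (9.28%). Between 22 and 21 nt, 23 of 900 loci shifted towards 21 nt and 13 towards 22 nt (4% in either direction). Most loci did not pass, and the shifts that passed were more often away from 24 nt than towards it. Without replicate 1 of cotyledon, 29 loci shifted towards 22 nt and 25 towards 24 nt between these lengths. With a minimum of reads 3 times as high, 19 of 256 loci shifted towards 21 nt and 22 towards 24 nt, so that the majority turned round. Between 22 and 21 nt the majority also turned round, with 31 loci shifted towards 22 nt and 26 towards 21 nt under that minimum, and 23 towards 22 nt and 18 towards 21 nt without replicate 3 of callus day 12.

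Some loci had reads in only 1 of the groups. At 4940 loci the cotyledon libraries had 0 reads and callus had at least 1, and at 1777 loci it was the other way round, with a median of 2 reads over the 3 libraries of the other group in both cases. At 779 loci every callus library had a read and no cotyledon library did, against 142 loci in the other direction. These counts were not thinned to equal depth. Gene reads were 529570 to 657593 per callus library and 456744 to 563528 per cotyledon library, so depth may add to the difference. Of loci at 0 in cotyledon, 33 rose, with 13 to 526 reads over the callus libraries. These 33 also had a read in each library of days 14 and 16. A locus at 0 in cotyledon could pass the filter on low counts only through callus libraries, those of days 14 and 16 among them. Their reads at the later days were thus favoured by the filter and are no separate result. Of the day 12 reads of the 33 loci, 29.3% were 21 nt, 16.2% 22 nt and 11.3% 24 nt.

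Of loci at 0 in callus at day 12, 6 fell, with 43 to 185 reads in cotyledon, 38.0% of them at 21 nt. Only 1 of the 6 stayed at 0 in every library of days 14 and 16. A count of 0 over 3 libraries allows up to 3 counts, so these loci are not shown to be silent.

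Called loci were spread over all chromosomes, as read from the identifiers. Loci on no numbered chromosome (written 00 in the identifiers) had the fewest rises, with 19 of 333 tested loci that rose (5.71%) and 67 that fell (20.1%), and 20.9% of the summed loss was there. On chromosomes 1 to 12, the share that rose ran from 12.3% to 17.0% and the share that fell from 16.0% to 22.6%. Chromosome 11 carried 58.4% of the summed gain, most of it at the loci described above.

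Neighbouring identifiers were called together in places. There were 26 runs of 3 or more consecutive identifiers that all fell, with 93 of the 1289 loci that fell, and 10 such runs that all rose, with 33 of the 967 that rose. How many runs the share of called loci alone would give was not worked out. Some runs may share reads: Solyc00g500136.1 to Solyc00g500139.1 had 1428, 2585 and 1454 callus reads, and Solyc00g500206.1 to Solyc00g500209.1 had 1468, 2670 and 1452. The longest run, chosen after its values were seen, was of 9 loci on chromosome 2 from Solyc02g070940.1 to Solyc02g071030.2. Together they had 65, 109 and 60 reads in callus and 1805, 1478 and 1088 in cotyledon, with log2 changes from -6.31 to -3.38 and no main length, as the most frequent length, 22 nt, held 16.6% of the reads. Another run of 6 loci that fell, on chromosome 11 from Solyc11g012200.3 to Solyc11g012260.3, had 58.9% of its reads at 24 nt, with 63, 82 and 61 reads in callus and 376, 246 and 254 in cotyledon. The longest run that rose was of 5 loci on chromosome 7, from Solyc07g005010.4 to Solyc07g005037.2, with 66, 117 and 118 reads in callus, 22, 15 and 27 in cotyledon, and 44.7% of reads at 24 nt.

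The authors' deposited table gave their own comparison of day 12 with day 0 for each length. At 21 nt 168 loci rose and 183 fell in the authors' deposited table, 115 rose and 158 fell at 22 nt, and 215 rose and 357 fell at 24 nt. Of loci called here on the common scale, 60.7% of the rises and 71.7% of the falls at 21 nt were also in the authors' deposited table, and 82.5% and 49.1% at 24 nt. Of the calls in the authors' deposited table, 81.0% of rises and 74.9% of falls at 21 nt and 65.6% and 89.9% at 24 nt were also made here. At all 9 lengths 0 loci had opposite calls in the authors' deposited table and here. The share of rises among calls at 24 nt in the authors' deposited table, 37.6%, lay between that of the common scale and that of scaling within the length.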

How the data were processed

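Small RNAs of 12 libraries, 3 each of callus at days 12, 14 and 16 and of cotyledon at day 0, were sequenced after adapter ligation, reverse transcription, PCR and size selection on a gel, per the labels. PCR copies cannot be told from separate molecules. The submitters' processing notes name fastp, Bowtie and DESeq2, without versions. The genome build and the handling of reads that map to several loci are not given in the sources used here. The authors deposited raw counts per gene locus for 9 read lengths in each library (108 columns, 0 of other samples), per the file headers. They also deposited TPM by length and strand, a table of 9 values in 1 cell, handled as another unit, which came out as whole reads of a larger library total for 216 of 216 values within 0.05 reads. The authors' deposited comparisons give log2 fold changes and p-values.

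Counts were summed over lengths, and also tested by length, with edgeR 4.0.16 (R 4.3.3) over all 12 libraries, with TMM factors and library sizes of the summed table, filterByExpr and Benjamini-Hochberg adjustment at 0.05. Per-length fits used the same scale. TPM were tested with limma 3.58.1 on log2(TPM + 1), with a pseudocount of 1, and library measures by exact permutation tests. DESeq2 1.42.0 was an alternative. The SE of a log2 change was taken from the change and its F statistic. Folds against 0 take 3 counts as the sum of that group, a floor that covers counting error only. A class needed 10 reads. The length shift test needed a mean of 5 reads per library at each length. The summed, 21-nt, 24-nt, length shift (24 against 21 nt) and TPM fits were tested on simulated data.

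The biological coefficient of variation, common to all loci, was 0.333. Loci were named where the adjusted p was below 0.05, the mean level 10 CPM or more and the groups did not overlap, ranked by log2 change, with at most 2 per direction in the summed, 21-, 22- and 24-nt fits, and the loci with the largest gain and the largest loss. Members, classes and the rule were chosen with earlier results of these data known. The gene and marker lists needed names, matched no identifier and gave no result. Chi-square per degree of freedom between replicates was 3.61 to 12.4, above counting noise, so each library was counted as 1 sample. Library totals were 2769024 to 4799134 reads over the 12 libraries, recovered from TPM, and whether they count mapped or all reads is unknown here. Replicate 3 of callus day 12 and replicate 1 of cotyledon stood apart from their groups on the second principal component, at 18.8 against -26.6 and -24.8, and at 24.4 against -11.0 and -10.9; alternatives left out both. Of the loci, 74 fell into 33 sets with near-identical counts, and 4 of the rises, 29 of the falls and 0 of the loci named by the rule or among the largest gains and losses were in such sets. No sequence is shown, as no sequence tables were used here.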

Additional observations from a re-analysis of the deposited data

How the results depend on the processing

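Counts of called loci kept within 1.5 times of their value except where given here. Without callus day 12 replicate 3 and cotyledon replicate 1 together, an alternative added after the data were seen, 642 loci rose in the sum, 40 at 23 nt and 91 at 24 nt, and 153 fell at 23 nt and 344 at 24 nt. With TMM within each length 54, 61, 94, 150, 353 and 37 loci rose at 18, 19, 20, 23, 24 and 26 nt, and 186 and 411 fell at 23 and 24 nt. With DESeq2's test, which scales within each length, 287 and 31 rose at 24 and 26 nt and 177 and 413 fell at 23 and 24 nt. With only the 6 libraries 15, 19 and 9 rose at 18, 19 and 26 nt, 4 length and strand classes passed and 13 loci shifted towards 24 against 21 nt. With no filter 16, 55 and 19 rose at 18, 23 and 25 nt. The minimum of reads 3 times as high gave 19 shifts towards 21 and 22 towards 24 nt, and 31 towards 22 and 26 towards 21 nt. Replicate numbers did not pair the samples: deviations of same-numbered libraries correlated at -0.14, 0.03 and -0.09, and of others at -0.10 to 0.19. With the replicate block 897 loci rose and 1223 fell in the sum, and no count by length moved by over 1.5 times.

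Leaving out 1 library at a time gave 784 to 925 rises and 1016 to 1171 falls in the sum. By length it gave 18 to 42 rises and 68 to 110 falls at 18 nt, 30 to 51 and 71 to 122 at 19 nt, 61 to 72 and 204 to 295 at 23 nt, 123 to 151 and 409 to 671 at 24 nt, and 17 to 24 and 50 to 79 at 26 nt. Length and strand classes that passed numbered 5 to 10. Shifts numbered 11 to 21 towards 24 and 35 to 69 towards 21 nt, 5 to 23 towards 22 and 13 to 19 towards 21 nt, and 29 to 72 towards 22 and 18 to 27 towards 24 nt. Single libraries moved some of these by over 1.5 times: without replicate 1 of cotyledon 110, 204 and 409 loci fell at 18, 23 and 24 nt, 13 shifted from 22 to 21 nt and 29 from 24 to 22 nt; without its replicate 2 42 and 51 rose at 18 and 19 nt, 8 shifted from 21 to 22 nt and 72 from 24 to 22 nt. Without replicate 1 of callus 7 shifted from 21 to 22 nt; without its replicate 2 79 fell at 26 nt, 5 shifted from 21 to 22 nt and 11 from 21 to 24 nt; without its replicate 3 79 fell at 26 nt, 23 shifted from 21 to 22 nt, 18 from 22 to 21 nt and 5 length and strand classes passed. The lean of 21-nt loci was 0.59 to 0.90 and of 22-nt loci 0.64 to 0.88 higher in callus.

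Rises among calls of 21-nt, 22-nt and 24-nt loci were 44.7%, 54.6% and 17.6% by cotyledon classes, 59.7% of 21-nt and 20.1% of 24-nt loci with library totals, 69.9% of 21-nt loci with at least 30 reads, and 83.3% of 22-nt and 18.01% of 24-nt loci with 50% of reads at the length, where the 22-nt lean was 1.53. The share of the gain at 21 nt was 33.1% without the 5 largest gains. Without the 10 most abundant loci, 2 library measures turned: 22-nt over 21-nt reads, callus less cotyledon, was 0.0294 in place of -0.148, and the share of the 10 most abundant of the remaining loci was -0.644 in place of 9.78 percentage points. Without Solyc12g099270.2, added after the data were seen, the 22-nt class sum, callus less cotyledon, turned to 1305 CPM in place of -17172 CPM. For loci named by the rule or by their gains and losses, 348 of 361 values under alternatives kept direction and call, 13 lost the call and 0 reversed. Of calls by length and strand, sense 22, 25 and 26 nt and antisense 26 nt lost theirs with only the 6 libraries; the cause was not tested. Depth limits the rarest loci: 325 of the rises had under 10 cotyledon reads in all, and 120 of the falls under 10 callus reads.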

Other observations

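Tested loci were also set out by how far their reads kept to 1 length. Among 6368 tested loci with 30 or more reads over the day 14 and 16 libraries, 962 rose and 1039 fell. Of the 1591 in which no length held over 25% of these reads, 348 rose and 178 fell, with a median log2 change of 0.54. Of the 2399 in which 1 length held 50% or more, 247 rose and 516 fell, with a median log2 change of -0.19. Most of these, 1954 loci, had 24 nt as that length, and of them 107 rose and 452 fell, with a median of -0.29. The median was 0.43 among the 340 loci with 21 nt and 0.99 among the 61 loci with 22 nt, of which 30 rose and 3 fell. These counts were made with the classes of later callus libraries in view and no test was run on them, as loci are not replicates.

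Among loci that did not pass the test, 21-nt reads were 171659 ± 103518 CPM in callus and 126965 ± 30160 CPM in cotyledon (SD, n = 3), with the pair described above among them. The 27959 loci left out by the filter on low counts held 98753 ± 2629 CPM in callus and 91329 ± 2871 CPM in cotyledon (SD, n = 3), and of these 15015 ± 717 CPM and 11449 ± 1234 CPM were at 22 nt. The 22-nt level of these rare loci was thus higher in callus, from 14392 to 15799 CPM against 10183 to 12649 CPM in cotyledon. Their 21-nt level was higher too, from 16908 to 17624 CPM in callus against 11003 to 16085 CPM in cotyledon.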
